A study of Oryza sativa with 36 samples.

Results

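The genes described here encode the DNA replication machinery of rice. They are 31 listed names, found in the array annotation by gene symbol (FEN1A and FEN1B) or by synonym (29 genes), so most carry their replication name only as a synonym. All 31 had a probe set, 37 probe sets in total, among 17905 genes and 57194 rice probe sets on the array. Where a gene had more than 1 probe set (FEN1A, FEN1B, MCM8, ORC4 and MCM9), the one with the highest mean over all 36 arrays was used. The entry used for ORC5 also carries a synonym of ORC1, and it is called ORC5 as listed.

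Rice seeds, of the cultivar Nipponbare where a label names one, were soaked in aerated sterile water in the dark. Total RNA of embryo and of endosperm was hybridised to Affymetrix rice arrays before imbibition (0 h) and after 4, 8, 12, 16 and 24 h. Each of the 12 combinations of tissue and time had 3 arrays, numbered 1, 4 and 5 in embryo and 1, 2 and 3 in endosperm. The plants carried no transgene or mutation by their labels, and no agent other than water was added. The growth notes of the embryo samples speak of an embryonic axis, so the labels do not settle whether the scutellum was included. By the labels the arrays of a group were harvested on different dates, except that replicates 4 and 5 of embryo at 0 h share a date. Replicates 2 and 3 of endosperm at 8 h also share one. Nothing in the labels says that arrays of a group came from separate lots of seed. The p-values therefore measure the spread between these arrays, and whether it holds differences between lots of seed is not known.

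Replication of a chromosome starts where the origin recognition complex (ORC) sits on the DNA and loads the ring of MCM2 to MCM7, which becomes the core of the helicase that opens the double strand. Replication protein A (RPA) covers the exposed single strand, DNA polymerase delta copies it while held by the sliding clamp PCNA, and replication factor C (RFC) puts that clamp on the DNA. Flap endonuclease FEN1 trims the fragments of the lagging strand, and chromatin assembly factor, of which FAS2 is a subunit, sets new nucleosomes behind the fork. A dry seed holds cells that stopped dividing during maturation together with stored transcripts, and in germinating cereals DNA synthesis resumes in the embryo, while mature starchy endosperm consists of dead cells surrounded by a living aleurone layer.

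The deposited values were log2 GCRMA signals, on which a difference of 1 is a 2-fold change in signal. The array median lay between 2.72 and 2.81 in endosperm and between 2.80 and 2.93 in embryo, so values near 2.5 to 3 are at the bottom of the scale, where a level is not resolved and a fold change is understated. The 75th percentile was 4.12 to 4.53 in endosperm and 5.21 to 5.77 in embryo. The difference between 3' and 5' control probe sets was 2.05 ± 0.41 (SD, n = 3) in embryo at 0 h and 1.67 ± 0.07 at 24 h, and 2.51 ± 0.18 and 3.27 ± 0.10 in endosperm, so this sign of RNA quality moved with time and tissue, and its part in the results was not tested. Of the 12 starchy endosperm markers 10 had a probe set, namely storage protein and starch genes and the regulator NFYB1. Their median was 12.8 to 13.2 in the endosperm groups, where the lowest marker of each group stood at 2.56 to 2.62. In embryo their median fell from 7.89 at 0 h to 6.28 at 8 h and 3.74 at 24 h. By the limits given below, 8 of the 10 were called lower in embryo at 24 h, where 18.7% of all genes were. Whether endosperm RNA in the embryo samples had a part in the embryo changes was not tested. Of the homeobox genes that mark the embryo, OSH1, OSH6 and OSH71 had group means between 5.82 and 9.80 in embryo and of 4.55 or below in endosperm, which bears out the tissue labels, whereas OSH43 was low and HOS59 high in both.

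In embryo some replication genes rose and others fell. The helicase ring, 2 of the 7 RPA genes, PCNA, POLD2, FAS2 and 3 of the 5 ORC genes were called higher, while the 5 clamp loader genes, the other 5 RPA genes and FEN1B were called lower or not called. A gene was called when limma gave an adjusted p below 0.05 and a difference of at least 1 on the log2 scale. After 4 h no member was called higher, where 7.12% of all probe sets were, and 3 were called lower, where 4.24% of all probe sets were. At an unadjusted p below 0.05 and no fold limit 1 member was higher, and the share of all probe sets at that looser limit was not counted. After 8 h, 12 were called higher, against 9.57% of all probe sets, and 5 lower, against 7.1%. With 1 probe set for each gene, 14.3% of all genes were called higher and 7.54% lower at 4 h, and 20.4% and 13.1% at 8 h. The 3 and 5 of 31 called lower are near these shares.

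At 12 h the counts were 14 higher, where 10.6% of all probe sets were called higher, and 2 lower, where 8.32% were. At 16 h they were 15 higher (background 11.3%) and 2 lower (background 9.08%), and at 24 h 15 higher (background 12.0%) and 3 lower (background 10.1%). With 1 probe set for each of the 17905 genes, 22.8%, 24.4% and 26.1% were called higher at 12, 16 and 24 h. At the same times 15.4%, 16.7% and 18.7% were called lower, and the members called lower were below these shares. The median difference of the members from 0 h was -0.40 after 4 h and 0.09 after 8 h. It reached 0.74 after 12 h, 0.98 after 16 h and 0.73 after 24 h, beside a median over all genes between -0.05 and -0.01 at these times. Counted by the first time a gene left its 0 h level, 3 were first called at 4 h, all lower, 16 at 8 h (12 higher and 4 lower), 1 at 12 h and 1 at 24 h, and 10 were never called.

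**Figure D1:**
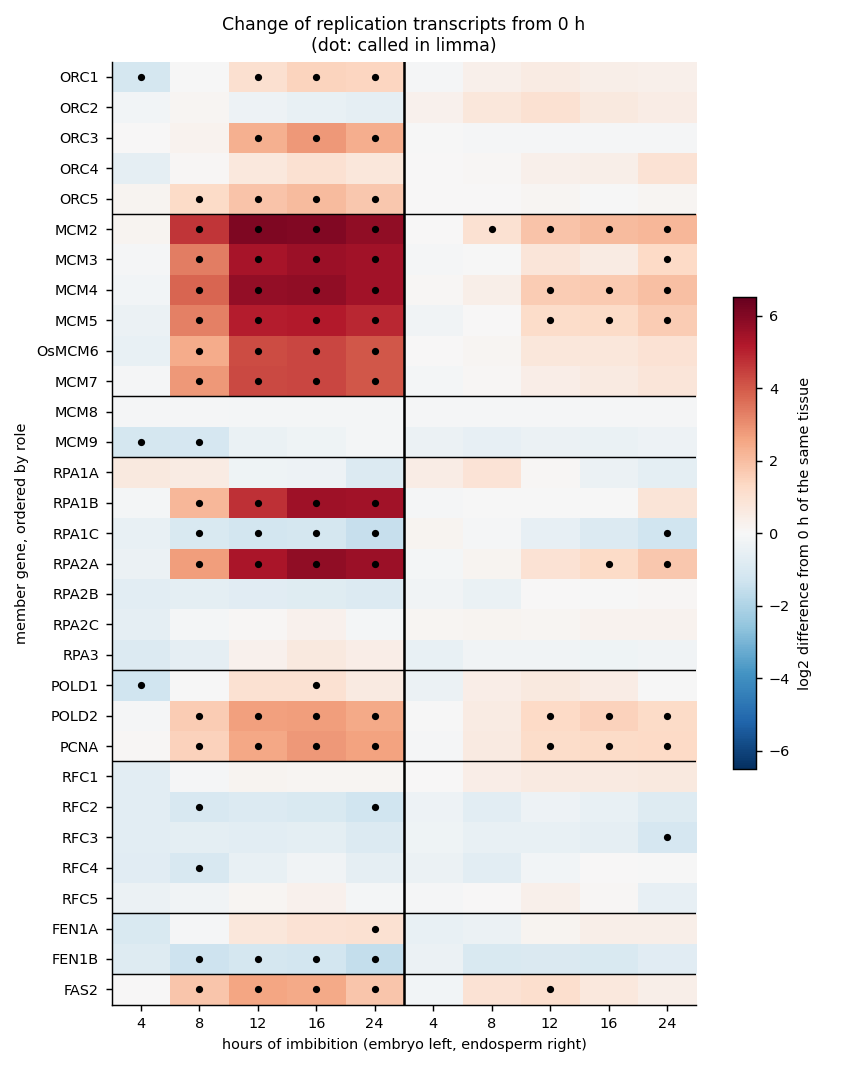
Log2 difference of each of the 31 genes (rows, ordered by role and separated by lines) from 0 h of the same tissue at 4, 8, 12, 16 and 24 h (columns; embryo left of the heavy line, endosperm right), with a dot where the difference was called. The MCM2 to MCM7 block, RPA1B and RPA2A are the darkest red cells, up to 6.07 in embryo at 12 h, and the endosperm side holds fewer dots and paler cells.

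The 6 genes of the helicase ring had the largest rises together with RPA1B and RPA2A. MCM2 (gene 4350526, chromosome 11) read 2.32, 4.06 and 2.33 on the 3 embryo arrays at 0 h, 3.49, 2.85 and 2.90 at 4 h, 7.73, 7.64 and 7.31 at 8 h, and 8.64, 8.69 and 8.68 at 24 h. Every array from 8 h on lay above every array of 0 h and 4 h, and the spread at 0 h came from a single array, replicate 4. The difference at 24 h was 5.77 ± 0.33 (SE; adjusted p = 3.52e-14), a 54.4-fold signal.

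MCM3 (gene 4339099) read 2.64, 2.84 and 2.87 at 0 h, 6.39, 6.06 and 5.80 at 8 h and 8.13, 8.36 and 8.26 at 24 h. All 3 arrays at 0 h were below their own array's median, so the 24 h difference of 5.47 ± 0.24 (adjusted p = 1.45e-16) starts from an unresolved level. MCM4 (gene 107275673) read 2.59, 3.06 and 2.65 at 0 h, 6.90, 6.42 and 6.32 at 8 h and 8.17, 8.37 and 8.09 at 24 h, a difference of 5.44 ± 0.24 (adjusted p = 1.67e-16) with no overlap between the times. MCM5, OsMCM6 and MCM7 rose by 4.90 ± 0.24, 4.05 ± 0.22 and 4.06 ± 0.23 by 24 h, and their arrays at 0 h, between 3.0 and 3.93, lay below all of their arrays at 8 h, between 5.51 and 6.86. On the 24 h arrays the 6 ring genes read between 7.13 and 8.69.

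**Figure D2:**
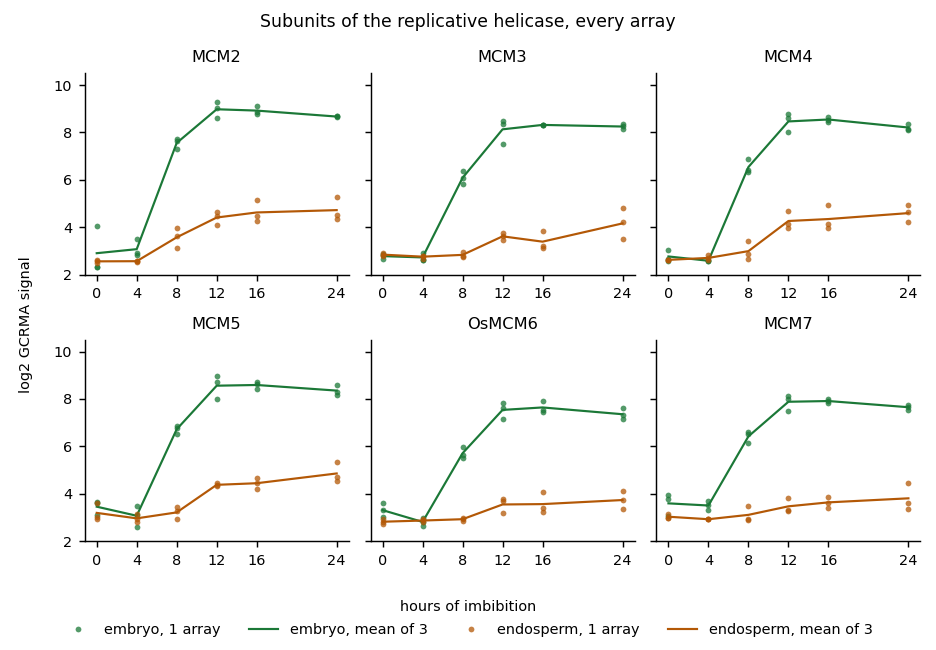
Log2 GCRMA signal of MCM2, MCM3, MCM4, MCM5, OsMCM6 and MCM7 (1 panel each) on every array against hours of imbibition, embryo in green and endosperm in brown; points are arrays and lines the means of 3. In embryo all 6 stay flat to 4 h and are higher at 8 h and again at 12 h, and the endosperm points of MCM2, MCM4 and MCM5 are above their 0 h points from 12 h on.

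MCM8 and MCM9 are relatives of the ring that have been tied to recombination and repair in other organisms and are not part of the replicative helicase. MCM8 stayed between 2.68 and 2.95 on all 36 arrays, close to the array medians, and gives no information on a change. MCM9 read 5.54, 5.59 and 5.14 at 0 h and 4.33, 4.30 and 4.21 at 4 h in embryo, and it fell by 1.14 ± 0.14 (adjusted p = 3.41e-07). At 24 h, with 5.0, 5.59 and 5.22, it overlapped its 0 h arrays and was not called (-0.15 ± 0.14, adjusted p = 0.35). Its other 2 probe sets were not called at 4 h, at -0.71 ± 0.17 and -0.65 ± 0.17.

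Subunits of the origin recognition complex did not move as a block. ORC1 (gene 4340349), the largest subunit, read 4.63, 4.83 and 4.89 at 0 h, 4.00, 3.36 and 3.61 at 4 h and 6.14, 6.34 and 6.01 at 24 h in embryo. It was below its 0 h arrays at 4 h, where it fell by 1.13 ± 0.21 (adjusted p = 7.46e-05), and above them from 12 h, with a 24 h difference of 1.38 ± 0.21 (adjusted p = 2.39e-06). That 24 h call was lost when arrays were centred on their 75th percentile (0.99) or quantile normalized (0.90).

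ORC3 (gene 4348571) read 2.36, 2.66 and 2.58 at 0 h, 2.65, 3.01 and 2.66 at 8 h, 5.16, 5.07 and 4.31 at 12 h and 4.69, 4.96 and 4.97 at 24 h. It was the member first called at 12 h, and its 24 h difference was 2.34 ± 0.14 (adjusted p = 4.19e-14). ORC5 was called from 8 h and had risen by 1.74 ± 0.15 at 24 h, from arrays at 2.41, 2.46 and 2.48 to arrays at 3.97, 4.14 and 4.45. ORC2 and ORC4 were not called at any time: ORC2 was at -0.56 ± 0.13 and ORC4 at 0.73 ± 0.14 after 24 h, both below the 2-fold limit. Both ORC3 and ORC5 were below their array medians on all arrays of 0 h and 4 h, while ORC1, ORC2 and ORC4 were above theirs at both times.

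The RPA genes separated by paralogue. RPA binds DNA as a trimer of a large (RPA1), a middle (RPA2) and a small (RPA3) subunit, and work on the rice proteins has placed the paralogues in separate complexes, one of which joins RPA1B to RPA2A. RPA1B (gene 4332052) read 2.83, 3.52 and 2.73 at 0 h, 5.49, 5.11 and 4.89 at 8 h, 8.48, 7.81 and 7.02 at 12 h and 8.48, 8.78 and 8.13 at 24 h in embryo. Every array of 8 h exceeded every array of 0 h, and the 24 h difference was 5.44 ± 0.27 (adjusted p = 1.63e-15), a 43.3-fold signal.

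RPA2A (gene 4331236) read 3.90, 3.92 and 2.87 at 0 h, 6.63, 6.30 and 5.95 at 8 h, 9.34, 8.98 and 8.26 at 12 h and 9.07, 9.28 and 9.01 at 24 h. Its 24 h difference was 5.55 ± 0.27 (adjusted p = 1.67e-15), again with no overlap. RPA1C went the other way: it read 8.61, 8.73 and 8.65 at 0 h and 7.03, 7.19 and 7.23 at 24 h, and fell by 1.51 ± 0.14 (adjusted p = 6.11e-10). It was called lower from 8 h on.

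The remaining RPA genes did not reach the 2-fold limit in embryo at any time. RPA1A was highest at 4 h, with 7.94, 7.58 and 7.86 against 6.94, 7.11 and 7.36 at 0 h (0.66 ± 0.15, adjusted p = 0.00103), and lowest at 24 h, with 6.15, 6.16 and 6.47 (-0.87 ± 0.15). RPA2B, another middle subunit, went from between 8.73 and 8.86 at 0 h to between 7.84 and 7.94 at 24 h (-0.90 ± 0.11). RPA2C differed by -0.12 ± 0.14 at 24 h, and RPA3, the small subunit, was at -0.91 ± 0.10 after 4 h and 0.42 ± 0.10 after 24 h.

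**Figure D3:**
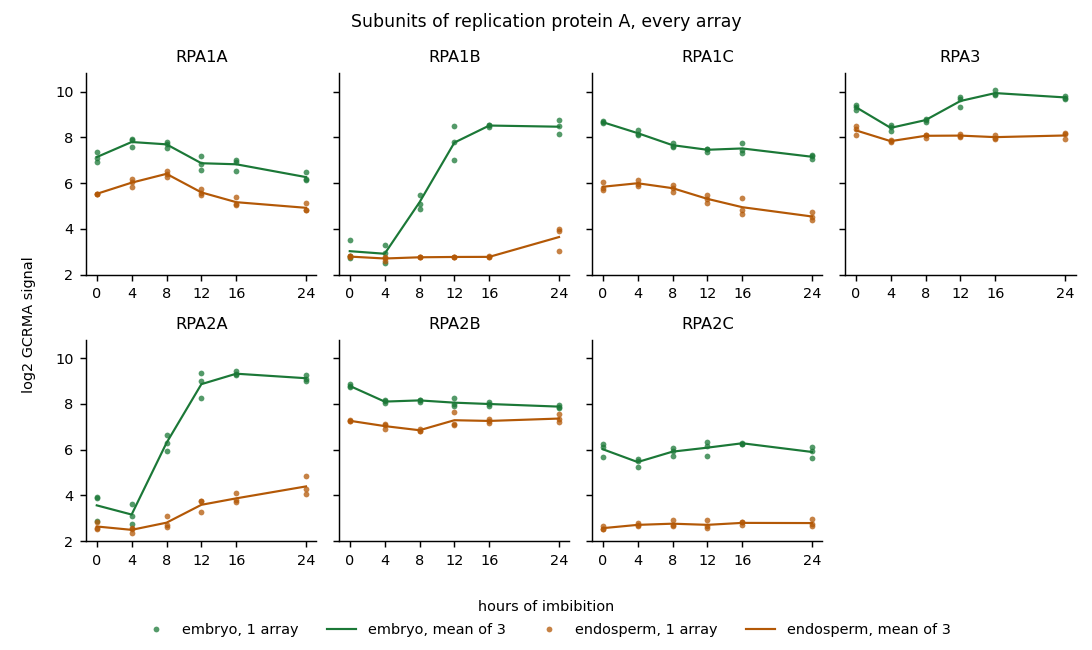
Log2 GCRMA signal of the 7 RPA genes (1 panel each) on every array against hours of imbibition, embryo in green and endosperm in brown; points are arrays and lines the means of 3. RPA1B and RPA2A climb in embryo between 4 h and 12 h, RPA1C declines in both tissues, RPA1A has a maximum at 4 h in embryo and 8 h in endosperm, and RPA2C stays near the bottom of the scale in endosperm.

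Polymerase delta and its clamp rose by less than the ring. PCNA (gene 4331062) read 7.58, 7.56 and 7.70 in embryo at 0 h, 9.26, 9.17 and 8.97 at 8 h and 10.19, 10.26 and 10.27 at 24 h. These arrays did not overlap, and the 24 h difference was 2.62 ± 0.14 (adjusted p = 1.03e-14), a 6.15-fold signal. POLD2, an accessory subunit of the polymerase, read 2.73, 2.85 and 2.76 at 0 h and 5.17, 5.44 and 5.05 at 24 h and had risen by 2.44 ± 0.17 (adjusted p = 1.57e-12). Its arrays at 0 h were all below their array medians. POLD1, the catalytic subunit, had the largest fall of all members at 4 h, from 6.28, 5.89 and 5.64 to 4.73, 4.49 and 4.71 (-1.29 ± 0.20, adjusted p = 8.69e-06). It was called higher only at 16 h (1.0 ± 0.20, adjusted p = 0.000152), with 6.63, 6.99 and 7.18, and stood at 0.61 ± 0.20 at 24 h. The probe set of POLD1 is one that can detect related transcripts, as its name shows, and so is that used for ORC4 and for FEN1B.

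None of the 5 clamp loader genes was called higher in embryo at any time. RFC1, the large subunit, differed by 0.15 ± 0.12 and RFC5 by -0.11 ± 0.14 at 24 h. RFC2 read 9.13, 8.98 and 9.01 at 0 h and 7.76, 7.63 and 7.89 at 24 h, all 3 below the lowest 0 h array, and fell by 1.28 ± 0.11 (adjusted p = 2.24e-10). RFC4 was called lower at 8 h only (-1.04 ± 0.13, adjusted p = 1.95e-07) and RFC3, at -0.90 ± 0.13 after 24 h, at no time. The RFC2 call at 24 h was lost when arrays were centred on their spike-in controls (-0.88).

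The flap endonuclease genes FEN1A and FEN1B differed in direction. FEN1A (gene 4339464) read 7.04, 7.15 and 7.19 at 0 h, 6.0, 6.16 and 6.25 at 4 h and 8.00, 8.30 and 8.10 at 24 h. It lay below its 0 h arrays at 4 h (-0.99 ± 0.12, short of the limit) and above them at 24 h (1.01 ± 0.12, adjusted p = 8.22e-08). That call sits at the limit: its other probe set differed by -0.12 ± 0.07, and the mean of both by 0.44. It was also lost under centring on the 75th percentile (0.63) and quantile normalization (0.97).

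FEN1B (gene 4334691) read 8.87, 8.81 and 8.74 at 0 h, 7.45, 7.42 and 7.48 at 8 h and 7.02, 7.54 and 7.25 at 24 h, and fell by 1.54 ± 0.11 (adjusted p = 6.9e-12). Its other probe set differed by -0.45 ± 0.11 at 24 h and was not called there, though it was called at 4 h (-1.03 ± 0.11), and the mean of both was -0.99. FAS2 read 3.98, 4.24 and 4.15 at 0 h, 5.92, 5.93 and 5.93 at 8 h, 6.86, 6.68 and 6.48 at 12 h and 6.01, 5.90 and 5.91 at 24 h. It was highest at 12 h (2.55 ± 0.14) and had a 24 h difference of 1.81 ± 0.14 (adjusted p = 1.93e-11), with every array from 8 h on above those of 0 h.

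The rise fell into the steps from 4 h to 8 h and from 8 h to 12 h. Between 4 h and 8 h, 14 members were called higher, where 4.05% of all probe sets were, and between 8 h and 12 h 13 were, where 1.85% were. Counted by gene, those shares were 9.3% and 4.11%. No member was called from 12 h to 16 h, where 0.64% of all probe sets were called either way, or from 16 h to 24 h, where 2.13% were. At an unadjusted p below 0.05 and no fold limit, 5 members were higher from 12 h to 16 h and 10 lower from 16 h to 24 h. The share of all probe sets at that looser limit was not counted. The largest differences from 4 h to 8 h were MCM2 at 4.48 ± 0.33, MCM4 at 3.96 ± 0.24, MCM5 at 3.65 ± 0.24 and MCM3 at 3.36 ± 0.24. In the next step they were RPA1B at 2.61 ± 0.27, RPA2A at 2.57 ± 0.27, ORC3 at 2.07 ± 0.14 and MCM3 at 2.05 ± 0.24. Fitted on the 6 arrays of 8 h and 12 h alone, 2 members were called in this step, where 0.376% of all probe sets were called either way. With replicate number as a block 1 member was called, where 0.234% of all probe sets were. In the fit on all arrays 3.49% of all probe sets were called either way. At an unadjusted p below 0.05 and no fold limit, 21 and 19 members were higher in these 2 smaller fits and 3 lower in each.

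The share of the 24 h difference present at 8 h was not the same for all members. As a share of the 24 h difference on the log2 scale, the 8 h difference was 99.1% for FAS2, 80.7% for MCM2, 59.3% to 69.7% for the other 5 ring genes, 57.9% for PCNA and 67.8% for POLD2. It was 49.1% for RPA2A, 39.3% for RPA1B and 10.3% for ORC3, and -3.21% for ORC1 and -6.0% for FEN1A. At 12 h the median of this share over the 15 members called higher at 24 h was 104%, with a range from 73.5% for FEN1A to 140% for FAS2. These shares are a description with no test between members. Those of MCM3, ORC3, ORC5 and POLD2 start from 0 h arrays below their array medians, where a level is not resolved. At 12 h replicate 5 was the lowest of the 3 arrays for all 15 of these members, by a median of 0.60 below the mean of the other arrays, and without it 17 members were called against 0 h and 13 against 8 h.

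All members called in embryo at 4 h, 8 h and 12 h kept their direction on each of the 2 harvest dates shared with 0 h, which covers 3, 17 and 16 genes. The arrays of these dates are among those that gave the calls, so this is a description and not a separate test. The 16 h and 24 h embryo arrays share no harvest date with 0 h. With harvest date as a block the 24 h counts were 15 higher and 5 lower. That fit links 24 h to 0 h only through other times. Of the 24 h arrays, only replicate 4 has a harvest date in common with arrays of 4 h, 8 h and 12 h.

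In endosperm fewer members moved, later and by less. At 4 h no member was called, where 3.53% of all probe sets were called either way. At an unadjusted p below 0.05 and no fold limit 2 members were higher and 8 lower, and the share of all probe sets at that looser limit was not counted. At 8 h 1 was called higher, MCM2 (background 5.63%), and at 12 h 6 were, namely MCM2, MCM4, MCM5, POLD2, PCNA and FAS2 (background 6.51%). At 16 h 6 were called higher (background 6.57%), and at 24 h 7 were higher (background 7.33%) and 2 lower (background 4.57%). With 1 probe set for each gene, as for the members, 12.7%, 15.2% and 15.4% of all genes were called higher at 8, 12 and 16 h. At 24 h 17.2% were called higher and 8.57% lower. The 6 of 31 at 12 h and 16 h and the 7 and 2 of 31 at 24 h are near the shares of all genes. The 7 genes called higher at 24 h were MCM2, MCM3, MCM4, MCM5, RPA2A, POLD2 and PCNA, all of which were among the 15 of embryo. The 2 called lower were RPA1C, also 1 of the 3 called lower in embryo, and RFC3. From 4 h to 8 h 2 members were called higher, FAS2 and MCM2 (background 1.75%), and from 8 h to 12 h 2, MCM4 and MCM5 (background 0.575%). Counted by gene, these backgrounds were 4.09% and 1.42%.

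MCM2 read 2.50, 2.57 and 2.61 in endosperm at 0 h, 3.97, 3.13 and 3.63 at 8 h, 4.12, 4.66 and 4.46 at 12 h and 5.29, 4.35 and 4.53 at 24 h. Its 3 arrays at 0 h were all below their array medians, and those from 8 h on were above them without overlap. The 24 h difference was 2.16 ± 0.33 (adjusted p = 6.36e-06), a 4.48-fold signal. The 8 h call of MCM2 (1.01 ± 0.33, adjusted p = 0.020) was lost without replicate 1 of 0 h or replicate 3 of 8 h.

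MCM4 read 2.62, 2.63 and 2.63 at 0 h, 3.98, 4.14 and 4.67 at 12 h and 4.95, 4.21 and 4.63 at 24 h, a difference of 1.97 ± 0.24 (adjusted p = 1.35e-07) with no overlap. MCM5 rose by 1.66 ± 0.24 and RPA2A by 1.75 ± 0.27, the latter called from 16 h and read as 4.84, 4.05 and 4.29 at 24 h against 2.59, 2.51 and 2.82 at 0 h. MCM3, at 1.32 ± 0.24, was called at 24 h only, and its adjusted p was 0.052 when the 6 arrays of 0 h and 24 h were fitted alone. OsMCM6 (0.92 ± 0.22), MCM7 (0.78 ± 0.23) and RPA1B (0.85 ± 0.27) did not reach the 2-fold limit, although RPA1B, flat between 2.62 and 2.80 on all endosperm arrays to 16 h, read 3.89, 3.05 and 3.99 at 24 h.

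PCNA read 5.34, 5.16 and 5.27 at 0 h and 6.83, 6.23 and 6.64 at 24 h in endosperm, with no overlap, and rose by 1.31 ± 0.14 (adjusted p = 2.18e-08). POLD2 rose by 1.25 ± 0.17 from arrays at 2.48, 2.49 and 2.58, all below their array medians, to arrays at 3.98, 3.87 and 3.47. When arrays were centred on their 75th percentile, MCM3 (0.98), PCNA (0.97) and POLD2 (0.92) fell just short of the limit, and MCM2, MCM4, MCM5 and RPA2A were called under all 4 scalings. FAS2 was called at 12 h only (1.07 ± 0.14, adjusted p = 8.87e-07), with 4.52, 5.03 and 4.87 against 3.48, 4.01 and 3.72 at 0 h, and read 4.03, 4.12 and 4.16 at 24 h.

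RPA1C in endosperm read 6.04, 5.79 and 5.69 at 0 h and 4.75, 4.5 and 4.37 at 24 h, and fell by 1.30 ± 0.14 (adjusted p = 2.59e-08). RFC3 fell by 1.09 ± 0.13 from arrays between 6.32 and 6.73 to arrays between 5.20 and 5.58. RPA1A had its highest endosperm arrays at 8 h, with 6.55, 6.40 and 6.27 against 5.54, 5.53 and 5.52 at 0 h (0.87 ± 0.15), which was short of the limit as in embryo. ORC3, with a 24 h difference of -0.05 ± 0.14, and ORC5, with 0.13 ± 0.15, stayed at the bottom of the scale, between 2.48 and 2.90 on every endosperm array. Every member called in endosperm at 8 h, 12 h, 16 h and 24 h (1, 6, 6 and 9 genes) had the same direction on each shared harvest date. This again reuses the arrays that gave the calls and is not a separate test.

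Homeobox genes of the embryo were measured beside these rises. In endosperm OSH71 read 2.66, 2.72 and 2.80 at 0 h and 5.17, 3.96 and 4.51 at 24 h, a rise of 1.82 ± 0.22 (adjusted p = 1.83e-07), and OSH1 and OSH6 rose by 1.24 ± 0.25 and 1.25 ± 0.27. Of the 5 embryo markers 3 were therefore higher, HOS59 was lower (-1.38 ± 0.16) and OSH43 was not called (-0.07 ± 0.10). OSH6 and OSH71 were already called at 4 h (1.30 ± 0.27 and 1.06 ± 0.22), before any member. The summed level of the 5 markers, on the log2 scale, was 7.56 to 7.96 at 0 h and 7.01 to 7.49 at 24 h in endosperm, and 10.51 to 10.69 at 24 h in embryo. HOS59, which is high in both tissues, weighs most in the endosperm sum, with 7.27 to 7.71 at 0 h and 6.09 to 6.22 at 24 h. The sum therefore does not follow OSH1, OSH6 and OSH71, which rose.

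Replicate 1 of the 24 h endosperm arrays was the highest for all 7 members called higher, and it was also the highest for OSH1, OSH6 and OSH71. Without it the same test called 7 members higher, with MCM2 at 1.88 and MCM3 at 1.0. Whether embryo RNA in the endosperm samples had a part in the endosperm rises was not tested. In bulk tissue, a change in the share of cells that carry a transcript and a change in transcript per cell cannot be told apart.

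**Figure D4:**
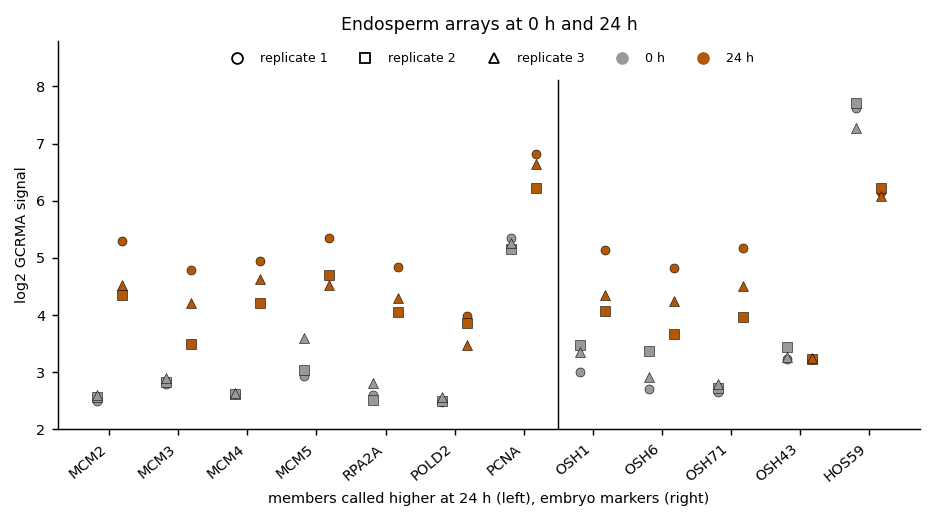
Log2 GCRMA signal on the endosperm arrays of 0 h (grey) and 24 h (brown), with a symbol for each replicate, for the 7 members called higher at 24 h (left of the line) and the 5 embryo markers (right). The circle of replicate 1 is the top 24 h symbol for all 7 members and for OSH1, OSH6 and OSH71.

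The difference between tissues in the change from 0 h was tested directly. At 24 h it was called lower in endosperm for 14 members, where 7.69% of all probe sets were, and higher for 2, where 7.69% were. With 1 probe set for each gene, 15.9% of all genes were called lower and 14.8% higher, and the 2 of 31 higher are below that share. The largest were RPA1B at -4.58 ± 0.38 (adjusted p = 3.36e-10), MCM3 at -4.15 ± 0.33 (adjusted p = 2.19e-10), RPA2A at -3.80 ± 0.39 and MCM2 at -3.60 ± 0.47, and each of the 6 ring genes was at -3.13 or beyond. ORC3 differed by -2.39 ± 0.19, ORC5 by -1.61 ± 0.22, FAS2 by -1.44 ± 0.20, PCNA by -1.31 ± 0.20 and POLD2 by -1.18 ± 0.24. Among the members nearest to no difference were MCM8 (0.06 ± 0.05), MCM9 (-0.17 ± 0.20), ORC4 (0.19 ± 0.20) and RFC3 (-0.20 ± 0.19).

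ORC2 (1.03 ± 0.19) and RPA2B (1.0 ± 0.15) were the 2 called higher, both at the limit, and neither was called under all 4 scalings, unlike 12 of the 14. The other 2 of the 14 lost their call after quantile normalization, ORC1 at -0.47 (adjusted p = 0.346) and POLD2 at -0.10 (adjusted p = 0.855). The ORC1 difference also fell short of the limit without replicate 1 of embryo 0 h (-0.98), replicate 4 of embryo 24 h (-0.97) or replicate 3 of endosperm 24 h (-0.94), and its adjusted p was 0.0531 with spike-in centring. At 4 h ORC1 alone was called, at 1.05 ± 0.29 (adjusted p = 0.0151). At that time 1.78% of all probe sets and 2.85% of all genes were called higher. ORC1 fell in embryo and was at -0.08 ± 0.21 in endosperm, where its arrays at 0 h were already below their medians.

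**Figure D5:**
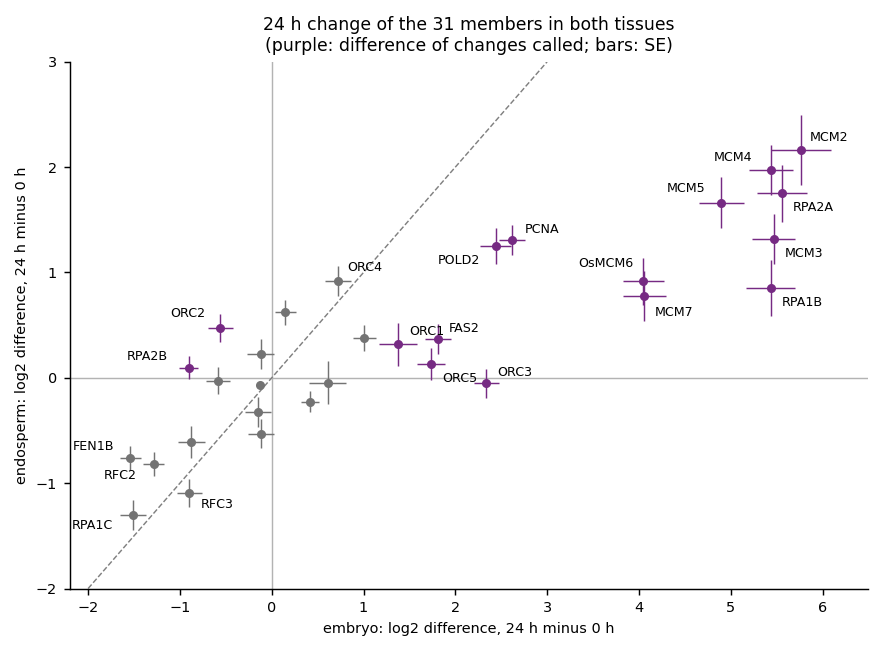
Log2 difference between 24 h and 0 h in endosperm (vertical axis) against that in embryo (horizontal axis) for the 31 genes, with standard errors as bars, the line of equal change dashed, and purple where the difference between the tissues was called. The 6 ring genes, RPA1B and RPA2A lie between 4.05 and 5.77 on the embryo axis and between 0.78 and 2.16 on the endosperm axis.

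Levels were also compared between the tissues at the same time. As deposited, 18 members were lower in endosperm at 0 h, where 23.2% of all probe sets were called lower, and 28 at 24 h, where 22.5% were. None was higher at either time, and 1 had an unadjusted p below 0.05 in that direction at each. Restricted to 1 probe set for each gene, 46.5% of all genes were called lower in endosperm at 0 h and 46.3% at 24 h. These counts depend on how arrays of different tissues are put on one scale: centring on the 75th percentile moved the median of all probe sets by 1.17 at 0 h and 1.21 at 24 h, and gave 5 members higher and 6 lower at 0 h and 1 higher and 15 lower at 24 h. Under that centring 33259 of the 57194 probe sets were called higher and 3114 lower at 0 h, and 35780 and 3800 at 24 h.

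At 0 h, 4 members were lower in endosperm under all 4 scalings. RPA2C (gene 9266781) read 2.65, 2.51 and 2.54 in endosperm and 5.68, 6.11 and 6.27 in embryo, a difference of -3.45 ± 0.14 (adjusted p = 2.98e-17). RPA1C differed by -2.82 ± 0.14, ORC1 by -2.30 ± 0.21 and ORC4 by -2.2 ± 0.14, each with no overlap between the tissues. MCM3 (0.06 ± 0.24) and MCM4 (-0.14 ± 0.24) were among the 4 nearest to no difference, with MCM8 and ORC5. All 0 h arrays of MCM3 in embryo, of MCM4 in endosperm and of ORC5 in both tissues were below their array medians, so these levels are not resolved.

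By 24 h, 15 members were lower under all 4 scalings: ORC1, MCM2 to MCM5, OsMCM6, MCM7, RPA1B, RPA1C, RPA2A, RPA2C, POLD1, PCNA, RFC5 and FEN1A. RPA1B (-4.82 ± 0.27), RPA2A (-4.73 ± 0.27), MCM3 (-4.09 ± 0.24) and MCM2 (-3.95 ± 0.33) had the largest differences. MCM8 (0.08 ± 0.04), RPA2B (-0.52 ± 0.11) and ORC2 (-0.66 ± 0.13) were the 3 not called. The 1 member higher under centring on the 75th percentile was MCM8, which is not resolved in either tissue.

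Other genes of the pathway were looked up by name, and few of the names had an entry with a probe set. Of 36 names of licensing and fork proteins only TIM had one, an entry that is also listed as triosephosphate isomerase and is not counted as a replication gene here, and ORC6 had no probe set. Of 13 nucleotide supply names, TK, which recycles thymidine, had one: it rose by 1.66 ± 0.14 in embryo and 1.29 ± 0.14 in endosperm by 24 h. RBR1 and RBR2, retinoblastoma-related brakes on entry into S phase, were called in neither tissue (RBR1 -0.51 ± 0.20 and RBR2 0.01 ± 0.13 in embryo). MSI1, a further chromatin assembly subunit, was at -0.60 ± 0.07 in embryo and -0.65 ± 0.07 in endosperm, and NAP1 matched an entry for an actin regulator and is left out.

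Of 5 recombination and mismatch repair genes, 4 were called lower in embryo at 24 h and none higher, where 18.7% of all genes were lower. NBS1, a subunit of the complex that detects broken DNA, fell by 2.51 ± 0.11, MSH5, a meiotic MutS relative, by 2.38 ± 0.21 and MRE11, the nuclease of that complex, by 1.53 ± 0.12. In endosperm 1 of these 5 was higher, where 17.2% of all genes were, and 1 lower, where 8.57% were. These were the recombinase DMC1 (1.38 ± 0.18) and NBS1 (-1.13 ± 0.11), and the 1 of 5 higher is near the share of all genes. A list of S phase control genes was added after the annotation had been read and had probe sets for 9 of 12 names. In embryo 6 of the 9 were higher at 24 h, where 26.1% of all genes were, and none lower, among them the kinase CDKA-2 (4.12 ± 0.18), the A-type cyclin CYCA3-2 (4.07 ± 0.25) and the kinase inhibitor KRP6 (3.95 ± 0.26). CENH3, the centromeric histone, was picked from this list beyond those 3. It had a mean of 4.81 in dry embryo, which became 5.65 after 12 h, 6.81 after 16 h and 8.24 after 24 h. No ring gene was called after 12 h against the time before, and no test compared CENH3 with the ring genes. In endosperm 4 of the 9 were higher, where 17.2% of all genes were, and CYCA3-2 (0.42 ± 0.25) and CENH3 (0.16 ± 0.16) were not called.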

How the data were processed

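Total RNA of 36 rice samples was measured on Affymetrix arrays. The deposited table holds log2 signals that the authors made with GCRMA, per the submitters' processing notes. Its version, annotation and filters are not given in the sources used here. Array 75th percentiles separate the tissues, so levels were compared between tissues under 4 scalings (as deposited, 75th percentile, quantile, spike-in controls). Of 57381 probe sets, 187 controls were left out; of the rest, 22436 map to 1 gene, 95 to several and 34663 to none. A mean for each of the 12 groups was fitted with limma 3.58.1 in R 4.3.3 (lmFit, eBayes) on all 36 arrays, with Benjamini-Hochberg adjustment over 57194 probe sets, and a difference was called at an adjusted p below 0.05 and a log2 difference of at least 1. The fit was tested on simulated data. No arrays were dropped or imputed, and the number of arrays limits the precision. The highest correlation between 2 arrays was 0.998. Members and gene lists were chosen with earlier results of these data known. In each comparison the members called, the 4 largest and the 4 nearest to no change are named, ordered by role. Other genes come from fixed lists and the S phase list added later, up to 3 of each by 24 h change in embryo. DMC1 and CENH3 were named beyond those 3. Searches of gene descriptions, promoter motifs and sequences were not used here. Deviations of all same-numbered arrays correlated above 0.1 for 4 of 30 pairs of times: embryo 8 h with 12 h (0.27 to 0.38), 8 h with 24 h and 16 h with 24 h (0.19 to 0.47), and endosperm 0 h with 4 h (0.13 to 0.22). In 3 of these, all but 8 h with 24 h, same-numbered arrays also share a harvest date by the labels. They share one as well for embryo 4 h with 8 h and with 12 h, and for endosperm 12 h with 0 h and with 4 h. There not all correlations were above 0.1, a limit applied to these same data. Replicate number entered as a block in alternative fits only, and the main fit took no arrays as pairs. Harvest date is the only batch the labels give.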

Additional observations from a re-analysis of the deposited data

Results flagged for a closer look

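These 17 values were picked out because the change from 0 h differed between the tissues in a direct test (endosperm change minus embryo change, log2, with limma's adjusted p below 0.05 and a size of at least 1). For the helicase ring at 24 h the values were -3.60 for MCM2, -4.15 for MCM3, -3.47 for MCM4, -3.23 for MCM5, -3.13 for OsMCM6 and -3.28 for MCM7. For the single-strand binding genes they were -4.58 for RPA1B, -3.80 for RPA2A and 1.0 for RPA2B. The origin recognition genes gave -1.06 for ORC1 (adjusted p = 0.00599), 1.03 for ORC2, -2.39 for ORC3 and -1.61 for ORC5, and ORC1 also gave 1.05 at 4 h (adjusted p = 0.0151). PCNA gave -1.31, POLD2 -1.18 and FAS2 -1.44. After quantile normalization the 24 h calls of ORC1 (-0.47, adjusted p = 0.346) and POLD2 (-0.10, adjusted p = 0.855) were lost. No explanation was weighed. MCM2, MCM3, MCM4, MCM5, RPA2A, PCNA and POLD2 were called higher in both tissues at 24 h, whereas ORC3 and ORC5 stayed at the bottom of the scale in endosperm.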

How the results depend on the processing

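Among the differences recomputed under the alternatives, 1 turned its direction: RFC1 in endosperm against embryo at 24 h, at 0.01 (adjusted p = 0.963) after quantile normalization, and the cause was not tested. The replicate block gave 15 members higher and 3 lower in embryo at 24 h and changed no other count past 1.5 times in the fit on all arrays. In a fit on the compared arrays alone, added after seeing the data for the times whose numbers pair, the replicate block gave 1 in the step from 8 h to 12 h, 0 from 16 h to 24 h and 0 in endosperm at 4 h. In these fits 0.234%, 0.224% and 1.15% of all probe sets were called either way. A harvest date block gave 5 lower in embryo at 24 h. Centring on the 75th percentile, which moved the median of all probe sets by -0.39 in embryo at 24 h and -0.34 in endosperm, gave 7 called in embryo at 4 h, 6 lower in embryo at 24 h, 4 higher and 4 lower in endosperm at 24 h, and between the tissues 5 higher and 6 lower at 0 h and 1 higher and 15 lower at 24 h. Of all 57194 probe sets, 33259 were called higher and 3114 lower between the tissues at 0 h under that centring, and 35780 and 3800 at 24 h. Quantile normalization gave 2 in endosperm at 8 h, 4 and 17 lower between the tissues at 0 h and 24 h and 1 higher for the difference of changes. Spike-in centring, which moved that median by 0.41 in embryo at 24 h, gave 1 in embryo at 4 h, 3 in endosperm at 8 h, 1 lower in endosperm at 24 h and 0 higher for the difference of changes.

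With no minimum fold the counts in embryo were 17 at 4 h, 27 at 12 h, 9 lower at 24 h and 20 higher from 8 h to 12 h, those in endosperm 5, 14, 16 and 19 at 4, 8, 12 and 16 h and 15 higher and 6 lower at 24 h, with 1 higher between the tissues at 0 h and 24 h and 6 higher for the difference of changes. With a minimum of 2 on the log2 scale they were 0 at 4 h, 8 at 8 h, 0 lower at 24 h and 8 and 4 higher in the steps to 8 h and 12 h in embryo, 0, 0 and 1 at 8, 12 and 16 h and 1 higher and 0 lower at 24 h in endosperm, 7 and 17 lower between the tissues, and 0 higher and 9 lower for the difference of changes. Matched by symbol alone, only FEN1A and FEN1B remained, with 0, 1, 1 and 1 called in embryo at 4, 8, 12 and 16 h, 1 higher and 1 lower at 24 h, 0 in either step, 0 in endosperm and 2 lower between the tissues at either time. Fitted on the compared arrays alone, the step from 8 h to 12 h gave 2, where 0.376% of all probe sets were called either way. Leaving out 1 array at a time gave 0 to 2 in endosperm at 8 h (0 without 0 h replicate 1 or 8 h replicate 3), 1 to 2 lower in endosperm at 24 h (1 without 0 h replicate 2 or 24 h replicate 3, where RFC3 was lost) and 0 to 2 higher for the difference of changes. A filter on dim probe sets, trend and robust moderation and the mean of all probe sets moved no count past 1.5 times. Signals near the array median limit what can be said of MCM8 and of the 0 h level of several other members. In embryo at 0 h every array was below its median for MCM3, ORC3, ORC5 and POLD2. In endosperm at 0 h this held for MCM2, MCM4, ORC1, ORC5, POLD2 and RPA2C.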
